A study of Mus musculus with 6 samples.

Results

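A set of 10 receptor genes for neuropeptides was followed in midbrain dopaminergic neurons, sorted from the pars compacta of the substantia nigra (SNc): Avpr1a, Oxtr, Ntsr1, Ntsr2, Oprk1, Oprm1, Oprl1, Tacr1, Tacr3 and Galr1. They were taken by symbol from a table of 23337 genes, and all 10 were found in it with at least 1 read. The neurons came from adult mice of strain C57BL/6 with the alleles Sox6-FSF-Cre, Th-2A-Flpo and RC-Frepe, which every library shares, and no treatment is named in the labels. Cells that express Sox6 were sorted by GFP (Sox6+, 3 libraries), and cells without it by mCherry (Sox6-, 3 libraries). Libraries carry the numbers 103, 825 and 1211 in both groups, and values by library are given here in that order. In this genetic design Flpo is driven from Th and Cre from Sox6, so a cell is labelled through its own Th and Sox6 activity, and recombination is permanent once it has happened. The comparison asks how the Sox6+ and Sox6- neurons of the SNc differ, here in their receptors for peptides.

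Neuropeptides are cut from precursor proteins, released from dense-core vesicles, and act on G protein-coupled receptors at a distance from their release site. Receptors for vasopressin, oxytocin, neurotensin and tachykinins signal mainly through Gq/11 and in general raise the activity of a neuron. Opioid, nociceptin and galanin receptors signal through Gi/o and in general lower it. In the midbrain, neurotensin and neurokinin B are known to excite dopamine neurons, and kappa-opioid agonists inhibit them directly, whereas mu-opioid agonists act largely on neighbouring GABA neurons.

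Avpr1a and Tacr3 stood furthest apart between the groups relative to their spread, in opposite directions. Avpr1a, the vasopressin V1a receptor, was 6.7-fold lower in Sox6+ neurons and was the only 1 of the 10 genes past the threshold in the limma test. Tacr3, the neurokinin 3 receptor, was 2.22-fold higher in Sox6+ neurons with no overlap between the groups, but missed the threshold. Oxtr, the oxytocin receptor, had 2 reads in the Sox6+ libraries together and 185 in the Sox6- libraries. Oprk1, the kappa-opioid receptor, overlapped between the groups, as did Ntsr1, the high-affinity neurotensin receptor. Oprm1, the mu-opioid receptor, Ntsr2 and Galr1 were under 50 normalized counts in every library.

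Values are the authors' read counts divided by a size factor per library (normalized counts), and the libraries held 10397924 to 12952768 reads. Of the 10 genes, 9 averaged 10 or more over all libraries and were tested, and Ntsr2, at 8.01, was not. The test was limma on log2(value + 1) with p-values adjusted by Benjamini-Hochberg over all 13175 genes tested. Differences are Sox6+ minus Sox6- on that log2 scale. Whether the 3 libraries of a group stem from different animals is not in the labels, and the p-values may thus rest on technical spread alone. An exact permutation test of 3 against 3 libraries cannot give a p below 0.1. In sorted pools, fewer cells that express a receptor and less of its RNA per cell cannot be told apart.

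The sorted gene and the marker genes bear on how far the labels can be taken. Sox6 ranged from 389.0 to 840.5 in Sox6+ libraries and from 18.1 to 103.6 in Sox6- libraries. Its log2 difference of 3.66 did not pass in limma (adjusted p = 0.0528) or edgeR (0.158), but passed in DESeq2 (2.21e-06). The main test thus missed the gene used for sorting. Summed over 10 dopaminergic markers, such as Th and the dopamine transporter gene Slc6a3, the level was 102840.0, 200037.2 and 173297.2 in Sox6+ libraries and 42317.8, 128691.6 and 37772.6 in Sox6- libraries. The sum of the 3 GABAergic markers Gad1, Gad2 and Slc32a1 was 6667.9, 5.69 and 1472.1 in Sox6+ libraries and 11532.3, 1181.3 and 6300.1 in Sox6- libraries. Sox6- library 825 was therefore the highest of its group in dopaminergic markers and the lowest in GABAergic ones. Sox6+ library 825 held 28325.1 over 10 microglia and macrophage markers, against 74.0 and 50.8 in the other Sox6+ libraries and 18.1 to 30.7 in Sox6- libraries. A single gene, Lyz2, made up 26494.1 of that sum. Tyrobp (1035.1), Cd68 (387.2), Mrc1 (322.3) and Csf1r (58.1) were also highest in that library. P2ry12, at 26.2, was not, and Tmem119, C1qa and Aif1 were at 0 there. Between the groups, glutamatergic markers did not overlap, with sums over 3 genes of 999.3, 162.8 and 764.2 in Sox6+ libraries and 2607.5, 2262.9 and 4815.2 in Sox6- libraries, nearly all from Slc17a6. The 10 astrocyte markers, 9 of them with a read, summed to between 3508.3 and 4069.8 in Sox6+ libraries and between 4333.4 and 7469.6 in Sox6- libraries. Most of that sum was Aldoc and Slc1a2, while the defining marker Gja1 was at 0 in all 6 libraries. The 7 oligodendrocyte markers summed to 2071.3 in Sox6+ library 825 (Mbp 1943.8) and to between 123.3 and 251.3 in the other libraries. The 4 oligodendrocyte precursor markers summed to 5.54 at most, and the 8 endothelial and pericyte markers to 43.6 at most.

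**Figure D1:**
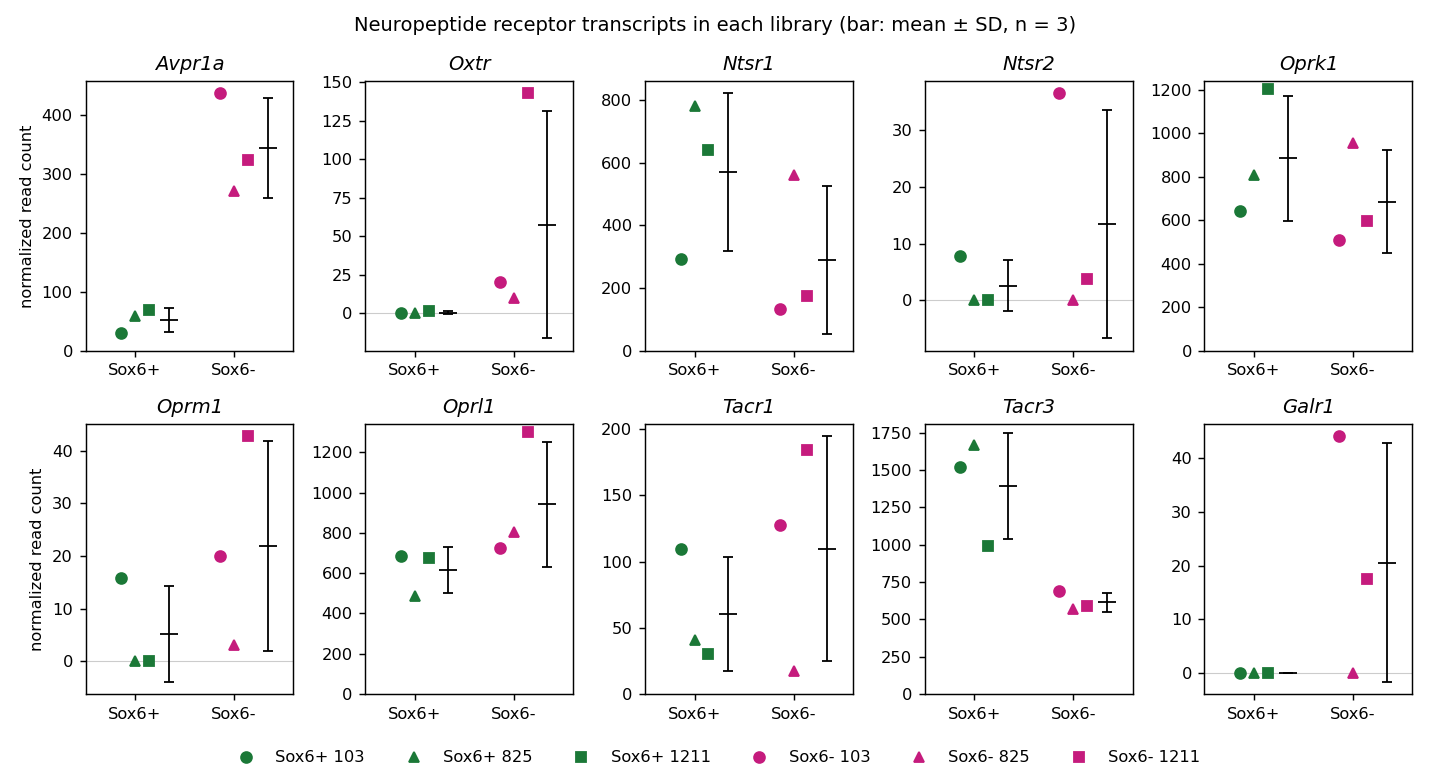
Normalized read counts (vertical axes, linear, 1 panel per gene) of the 10 receptor genes in each library, with Sox6+ libraries in green left of Sox6- libraries in magenta, marker shape giving the library number and black bars the mean ± SD of 3 libraries. The groups are apart in Avpr1a, Oxtr, Oprl1 and Tacr3, and they overlap in the other 6 genes.

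The vasopressin and oxytocin receptors are close relatives that bind peptides of the same family. Avpr1a lies on chromosome 10 from 122448499 to 122453452 on the plus strand (GRCm38, GENCODE M21). It had 29.6, 59.2 and 68.4 normalized counts in Sox6+ libraries, while the Sox6- libraries had 436.5, 270.9 and 322.7. Every Sox6+ library lay below every Sox6- library, and the gap between the groups was wider than the range within either. The means were 52.4 ± 20.3 in Sox6+ and 343.4 ± 84.7 in Sox6- neurons (SD, n = 3 each). The difference, at -2.75 (standard error 0.403), had a 95% interval from -3.65 to -1.84 and an adjusted p of 0.0345 (limma). Over all tested genes limma called 0.304% in either direction, 0.129% higher and 0.175% lower in Sox6+ neurons. Two-sided, the exact permutation test gave a p of 0.1. The edgeR quasi-likelihood test on recovered reads gave a difference of -2.73 and an adjusted p of 0.0697, outside the threshold. In limma the call was also lost without Sox6+ library 825 or 1211 (adjusted p = 0.0779 and 0.0738) and without Sox6- library 103, 825 or 1211 (adjusted p = 0.0992, 0.0626 and 0.199), while the difference stayed between -2.98 and -2.39. The glutamatergic marker gene Slc17a6 separated the groups in the same direction, at 873.1, 162.8 and 764.2 in Sox6+ libraries and 2496.2, 2236.7 and 4815.2 in Sox6- libraries (adjusted p = 0.266 in limma and 0.0414 in DESeq2). Avpr1a had the order of the GABAergic sum within the Sox6- libraries and not within the Sox6+ libraries. The part of these markers in the Avpr1a difference was not tested.

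Oxtr (chromosome 6, 112473683 to 112489943, minus strand) had 0, 0 and 1.85 normalized counts in Sox6+ neurons and 20.1, 10.1 and 142.8 in Sox6- neurons. Most of its reads came from Sox6- library 1211, and the groups did not overlap. Its reads stood at a ratio of 0.0113 (Sox6+ to Sox6-, exact 95% binomial interval 0.00136 to 0.0415, counting error only). Its difference of -4.51 (standard error 1.47) did not pass (adjusted p = 0.285, limma). DESeq2 on the recovered reads called it at an adjusted p of 0.00791, and edgeR did not (adjusted p = 0.273). Without Sox6- library 1211 the limma difference was -3.43 (adjusted p = 0.869). The peptides themselves were nearly unread in these cells: Avp had no read in any library, and Oxt had 2.78 normalized counts in Sox6- library 1211 and none elsewhere. Both peptides are known to be made mainly by hypothalamic neurons.

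Tachykinin receptors bind substance P and the neurokinins, made from Tac1 and Tac2. Tacr3, the receptor that prefers neurokinin B, lies on chromosome 3 from 134829007 to 134934579 on the plus strand. It had 1521.2, 1667.1 and 994.3 normalized counts in Sox6+ neurons and 687.9, 566.0 and 588.0 in Sox6- neurons. The lowest Sox6+ library was above the highest Sox6- library, and Sox6- libraries lay close together. The means were 1394.2 ± 353.9 in Sox6+ and 613.9 ± 65.0 in Sox6- neurons (SD, n = 3 each). The log2 difference of 1.15 had a standard error of 0.22 and a 95% interval from 0.66 to 1.65. Its adjusted p was 0.0782 in limma and 0.13 in edgeR, both outside the threshold, and 0.000237 in DESeq2. The 9 tested dopaminergic markers were all positive in their difference, their median being 1.41 on the log2 scale against -0.02 over all tested genes, and 0 passed in limma. Sox6- library 825, whose dopaminergic sum of 128691.6 exceeded that of Sox6+ library 103, had the lowest Tacr3 of the 6 libraries. Sox6+ library 825 had the highest dopaminergic sum, 200037.2, and the highest Tacr3. The part of these markers in the Tacr3 difference was not tested. Without Sox6- library 825 the difference was 1.10, and without Sox6+ library 825 it was 1.01.

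Tacr1, the substance P receptor, had 109.5, 41.0 and 30.5 normalized counts in Sox6+ neurons and 127.6, 17.1 and 184.6 in Sox6- neurons. The groups overlapped. Sox6+ library 103 (GABAergic sum 6667.9) and Sox6- libraries 103 and 1211 (11532.3 and 6300.1) were the 3 highest in Tacr1, and the 3 libraries with GABAergic sums of 1472.1 or less were the 3 lowest. The part of those markers in the Tacr1 values was not tested. The log2 difference was -0.52 with a 95% interval from -2.53 to 1.49 (adjusted p = 0.857, limma), and it was 0.13 without Sox6- library 1211. Tac1 had 2878.7, 0 and 0 in Sox6+ neurons and 4760.3, 2648.6 and 15718.2 in Sox6- neurons. Tac2 had 2761.3, 0 and 0 in Sox6+ neurons and 1252.9, 0 and 2171.1 in Sox6- neurons. Tac2 was thus read in the same 3 libraries that were highest in Tacr1 and in GABAergic markers, and at 0 in the other 3.

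To show the region before each start site, the 250 bases upstream of the RefSeq start are given for the 2 receptors that stood furthest apart, in GRCm38.p6, from 5′ to 3′ on the strand of the gene, with matches to TATAAA in capitals. The Avpr1a window is chr10:122448249-122448498 and the Tacr3 window is chr3:134828757-134829006, both on the plus strand.
Avpr1a: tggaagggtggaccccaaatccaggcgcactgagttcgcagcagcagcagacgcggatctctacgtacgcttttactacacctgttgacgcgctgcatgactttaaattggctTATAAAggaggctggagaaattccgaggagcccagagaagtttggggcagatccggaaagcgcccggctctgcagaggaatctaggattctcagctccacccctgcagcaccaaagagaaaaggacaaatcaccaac
Tacr3: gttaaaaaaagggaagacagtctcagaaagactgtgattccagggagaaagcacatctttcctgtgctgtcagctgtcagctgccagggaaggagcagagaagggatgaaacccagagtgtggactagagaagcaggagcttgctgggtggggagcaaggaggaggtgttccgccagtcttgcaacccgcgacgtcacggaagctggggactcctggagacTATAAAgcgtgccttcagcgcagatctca
The match begins 137 bases upstream of the start in Avpr1a and 29 bases upstream in Tacr3, and 12.4% of all 32851 such windows hold TATAAA on either strand. The SOX-type motifs AACAAT and AACAAAG were searched on both strands as well, and 13.8% of windows hold either. Neither Avpr1a nor Tacr3 holds them in this window. Promoter windows were found for 8 of the 10 receptors, and among these Tacr1 held a SOX-type motif, AACAAAG, beginning 77 bases upstream. TATAAA was held by 3 of the 8: Avpr1a, Tacr3 and Oprl1, in Oprl1 on the opposite strand 140 bases upstream. These matches describe letters only.

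Neurotensin has a high-affinity receptor, Ntsr1, and a low-affinity one, Ntsr2, which in mouse brain is known mainly from astrocytes. Ntsr1 lies on chromosome 2 from 180499976 to 180544980 on the plus strand. It had 291.0, 778.9 and 640.4 normalized counts in Sox6+ neurons and 132.4, 559.9 and 173.4 in Sox6- neurons. The groups overlapped through Sox6+ library 103 and Sox6- library 825. In both groups the library with the highest dopaminergic marker sum, 825, also had the highest Ntsr1, and the part of those markers in the Ntsr1 values was not tested. Between the groups Ntsr1 differed by 1.16 on the log2 scale, with a 95% interval from -0.20 to 2.53 (adjusted p = 0.497, limma). It was 1.79 without Sox6- library 825 (adjusted p = 0.181) and 0.75 without Sox6- library 103.

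Ntsr2 had 7.89, 0 and 0 normalized counts in Sox6+ neurons and 36.5, 0 and 3.71 in Sox6- neurons. It was read in 3 of the 6 libraries, with 8 reads in Sox6+ and 42 in Sox6- libraries in all. Those 3 libraries were the ones with the highest GABAergic sums, and the part of those markers in the Ntsr2 values was not tested. The astrocyte marker sum was 3564.3, 3508.3 and 4069.8 in Sox6+ libraries and 4333.4, 4929.6 and 7469.6 in Sox6- libraries, with Gja1 at 0 throughout. Slc1a3, also on that list, had 0, 0 and 0 in Sox6+ libraries and 75.8, 0 and 24.1 in Sox6- libraries. Gfap had another order, with 0, 3.42 and 0 in Sox6+ libraries and 0, 9.06 and 21.3 in Sox6- libraries. The part of astrocyte markers in the Ntsr2 values was not tested. Nts, the neurotensin precursor gene, had 25.6, 0 and 0 in Sox6+ neurons and 1746.0, 394.8 and 1203.8 in Sox6- neurons. Its log2 difference of -8.30 (standard error 1.3) did not pass (adjusted p = 0.0592, limma). It passed without Sox6+ library 103, at -9.88 (adjusted p = 0.000441, limma). That is the one Sox6+ library with a read, so every Sox6+ value left was 0. It also passed in limma with a pseudocount of 8 (0.0131) and with a filter at a mean of 50 (0.0431). It did not pass in edgeR (adjusted p = 0.196), in DESeq2 (0.0513), with a pseudocount of 0.5 (0.0913) or with TMM (0.0608). Without any other single library it did not pass either (adjusted p from 0.0602 to 0.275, limma).

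**Figure D2:**
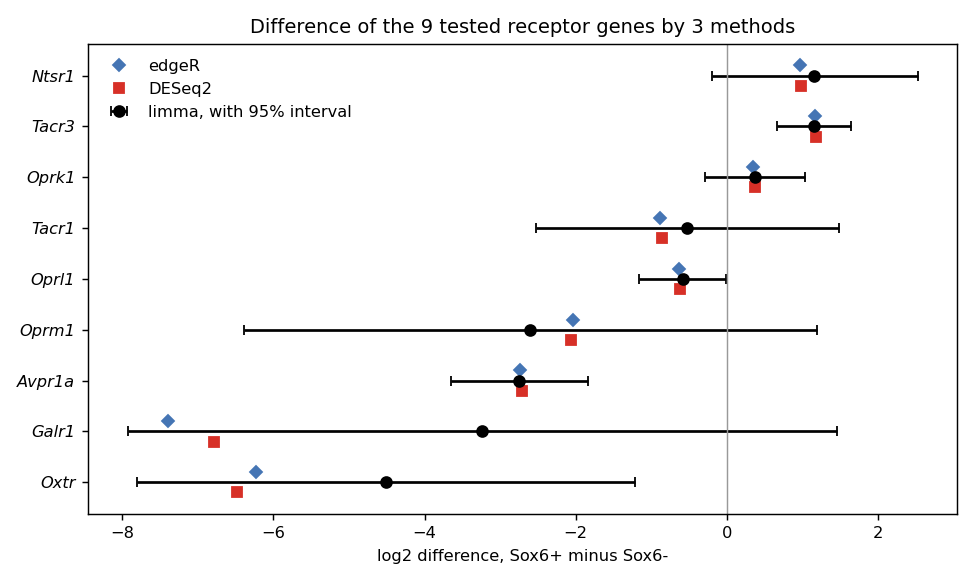
Log2 difference of Sox6+ minus Sox6- neurons (horizontal axis) for the 9 tested receptor genes, with black points and bars for the limma estimate and its 95% interval, blue diamonds for edgeR and red squares for DESeq2. The 3 methods give nearly the same value for Avpr1a and Tacr3, and the estimates of Galr1 (3 Sox6+ libraries at 0) and Oxtr (2 at 0) differ most between methods.

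The opioid family showed its largest levels in Oprl1 and Oprk1. Oprl1, the nociceptin receptor, lies on chromosome 2 from 181715016 to 181720985 on the plus strand. It had 684.6, 483.9 and 674.6 normalized counts in Sox6+ neurons and 724.3, 801.6 and 1298.4 in Sox6- neurons. All Sox6+ libraries were below all Sox6- libraries, but 684.6 and 724.3, the nearest values of the groups, differed little. The log2 difference was -0.58 with a 95% interval from -1.16 to -0.01 and did not pass (adjusted p = 0.433, limma). Pnoc, the nociceptin precursor gene, had 19.7, 0 and 73.9 in Sox6+ neurons and 412.5, 937.6 and 1456.1 in Sox6- neurons, with no overlap and an adjusted p of 0.242 (limma).

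Oprk1, the dynorphin receptor, lies on chromosome 1 from 5588466 to 5606131 on the plus strand. It had 640.3, 809.6 and 1202.3 normalized counts in Sox6+ neurons and 509.4, 952.7 and 594.5 in Sox6- neurons. The groups overlapped, with Sox6- library 825 inside the Sox6+ range. The log2 difference was 0.37 with a 95% interval from -0.29 to 1.03 (adjusted p = 0.666, limma), which leaves room for a difference in either direction. Pdyn, the dynorphin precursor gene, reached 41.7 at most, in Sox6- library 1211.

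Oprm1 had 15.8, 0 and 0 normalized counts in Sox6+ neurons and 20.1, 3.02 and 42.7 in Sox6- neurons, from 16 and 70 reads. The libraries above 10 were the same 3 that held the most GABAergic markers, whose part in these values was not tested. Between the groups it differed by -2.60 on the log2 scale, standard error 1.69 (adjusted p = 0.592, limma). Some exon bases of Oprm1 are shared with the neighbouring gene Ipcef1, so its count is uncertain to that extent. Penk, the enkephalin precursor gene, was high in both groups, at 1331.6 ± 920.9 in Sox6+ and 2578.5 ± 675.7 in Sox6- neurons (SD, n = 3 each), and Oprd1, the delta-opioid receptor gene, had 0.987 normalized counts in Sox6+ library 103 and none elsewhere.

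Galr1, a galanin receptor, was at 0 in all Sox6+ libraries and had 44.1, 0 and 17.6 normalized counts (65 reads) in Sox6- libraries. A group total of 0 allows up to 3 reads, and by that floor Galr1 was at least 20.7-fold lower in Sox6+ neurons (counting error only). The bound was 9.09-fold without Sox6- library 103, which held most of the reads, 13.6-fold without Sox6+ library 103 and 13.2-fold without Sox6+ library 1211. Sox6- library 825 was also at 0, so the groups overlapped, and the log2 difference of -3.24 did not pass (adjusted p = 0.588, limma). Gal, the galanin precursor gene, had 0, 46.7 and 5.54 in Sox6+ neurons and 132.4, 272.9 and 2375.2 in Sox6- neurons, and its difference did not pass either (adjusted p = 0.247, limma).

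**Figure D3:**
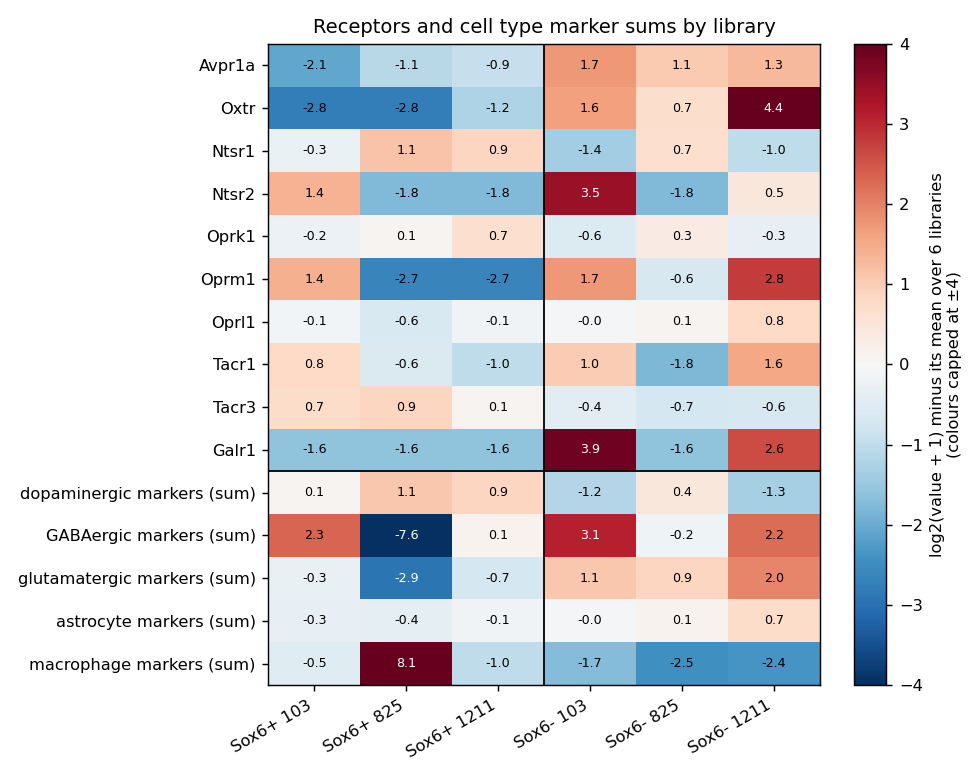
Values of the 10 receptor genes and the summed normalized counts of 5 cell type marker lists by library, as log2(value + 1) minus the mean over the 6 libraries, in colour with the number in each cell and Sox6+ libraries left of Sox6- libraries. Tacr1, Oprm1 and Ntsr2 are highest in the 3 libraries with the highest GABAergic sums, a relation that was not tested. Avpr1a and Tacr3 separate at the line between the groups.

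As a list, the receptors had 4 genes whose groups did not overlap, 1 of them (Tacr3) higher and 3 (Avpr1a, Oxtr and Oprl1) lower in Sox6+ neurons. Among all tested genes 17.0% did not overlap, 7.86% higher and 9.19% lower. The log2 difference was positive in 3 and negative in 6 of the 9 tested genes, with a median of -0.58 against -0.02 over all tested genes. Limma called 1 after adjustment and had 4 at an unadjusted p under 0.05 (background 11.4%), 1 higher (5.21%) and 3 lower (6.17%). With the library number as a block it called 2, against 2.03% of all tested genes. EdgeR called 0, against 0.0455% of all tested genes, and 5 receptors had an unadjusted edgeR p under 0.05, as did 10.0% of all tested genes. DESeq2 called 3 (Avpr1a, Oxtr and Tacr3), 1 higher and 2 lower, where it called 2.98% of genes, 1.31% higher and 1.66% lower. In the authors' deposited table, also from DESeq2, the same 3 had an adjusted p under 0.05, as did 2.83% of genes there, 1.25% higher and 1.58% lower in Sox6+ neurons. That table gives log2 fold changes of Sox6- over Sox6+ of 2.71 for Avpr1a, 6.48 for Oxtr and -1.18 for Tacr3.

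Levels of different receptors were set side by side as normalized reads per kilobase of exon (the union of annotated exons). In Sox6+ neurons Tacr3 led with 370.6 ± 94.1, followed by Oprl1 at 163.7 ± 30.1, Ntsr1 at 145.5 ± 64.2 and Oprk1 at 96.6 ± 31.5 reads per kilobase (SD, n = 3 each). Avpr1a followed at 19.6 ± 7.59 and Tacr1 at 9.29 ± 6.61, and the other 4 receptors averaged under 1. With the length of the longest transcript in place of the union, Oprk1 stood at 189.1, above Ntsr1, and Oprm1 at 2.17 reads per kilobase. By the range over libraries Tacr3 was apart from Oprl1, Oprk1 from Avpr1a and Tacr1 from Ntsr2. Oprl1, Ntsr1 and Oprk1 overlapped each other in order, as did Avpr1a and Tacr1.

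In Sox6- neurons Oprl1 led with 250.9 ± 83.0 reads per kilobase, followed by Tacr3 at 163.2 ± 17.3, Avpr1a at 128.6 ± 31.7, Oprk1 at 74.9 ± 25.7 and Ntsr1 at 73.7 ± 60.2 (SD, n = 3 each). Tacr1 followed at 16.9 ± 13.1, Oxtr at 4.21, 2.1 and 29.8 by library, Galr1 at 6.89 ± 7.44, Ntsr2 at 4.29 ± 6.43 and Oprm1 at 2.73 ± 2.47. Oprl1 was apart from Tacr3 by range, but Tacr3, Avpr1a, Oprk1 and Ntsr1 each overlapped the next in order. With the length of the longest transcript Oprk1 reached 146.6, above Avpr1a, and Oprm1 at 9.07, above Galr1 and Ntsr2. For comparison, the median tested gene lay at 45.3 reads per kilobase over the 6 libraries. Tacr3 exceeded 81.3% of tested genes with a length and Oprl1 exceeded 77.5%, whereas Oxtr exceeded 11.7% and Oprm1 1.12%.

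As a share of the summed level per kilobase of the 10 receptors, Tacr3 made up 53.0%, 49.9% and 34.3% in Sox6+ libraries and 26.8%, 21.0% and 19.5% in Sox6- libraries. Avpr1a made up 1.45%, 2.5% and 3.33% in Sox6+ libraries and 24.0%, 14.1% and 15.1% in Sox6- libraries. The sum itself ranged from 763.6 to 887.8 in Sox6+ and from 681.7 to 803.1 in Sox6- libraries, and these ranges overlapped. The receptor with the largest share was Tacr3 in all 3 Sox6+ libraries and Oprl1 in all 3 Sox6- libraries.

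**Figure D4:**
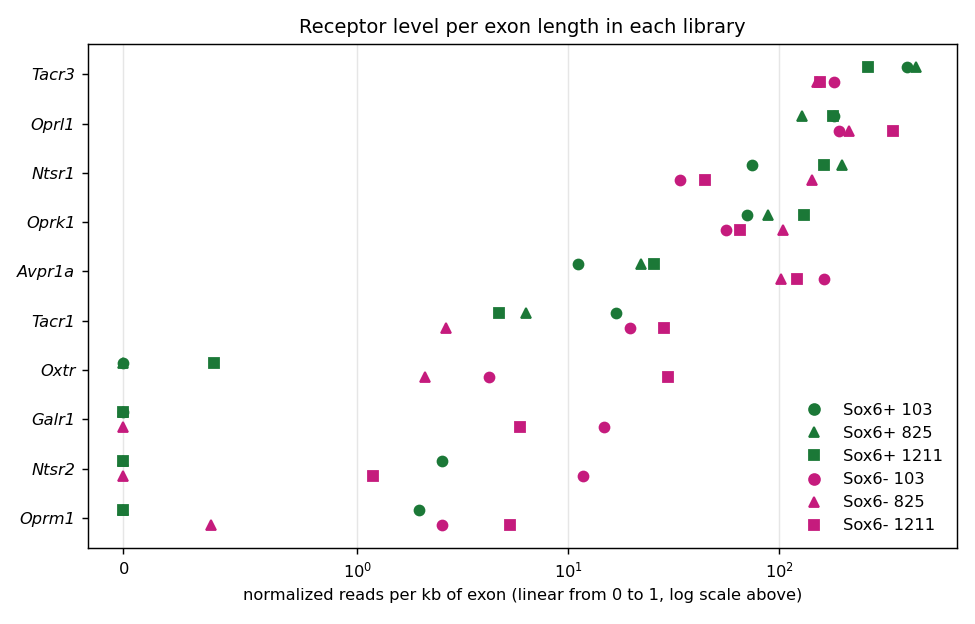
Normalized reads per kilobase of exon (horizontal axis, linear from 0 to 1 and logarithmic above) of each receptor in each library, Sox6+ in green above Sox6- in magenta within a row, with receptors ordered by their mean over the 6 libraries. Tacr3 and Oprl1 are highest, and Avpr1a lies between 11.1 and 25.6 in Sox6+ and between 101.5 and 163.5 in Sox6- libraries.

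The genes whose log2 values over the 6 libraries were most like those of Avpr1a, among 10479 others with a mean of at least 50, were N4bp1 (Pearson r = 0.992), Gabrg3 (0.991) and Uspl1 (0.991). Gabrg3, a GABA-A receptor subunit gene, had 16.8, 22.8 and 37.0 normalized counts in Sox6+ neurons and 134.3, 96.7 and 108.5 in Sox6- neurons, in the same order of libraries as Avpr1a. The closest to Tacr3 were Zfp275 (0.982), Cenpb (0.981) and Ccni (0.981). Correlations this high over 6 libraries are a description of the closest among many genes.

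The wider pathway was described with 8 lists holding 93 genes, of which 76 were tested and 0 passed in limma or edgeR over all genes. Without Sox6+ library 103 limma called 4 (Hcrtr2, Nts, Rxfp3 and Tac1), and without Sox6+ library 1211 it called 1 (Mc3r). At an unadjusted limma p under 0.05 there were 18 of the 76, 4 higher and 14 lower in Sox6+ neurons. Of all tested genes 11.4% reached that p, 5.21% higher and 6.17% lower. Receptors for other neuropeptides had 26 tested members, 6 with a positive and 20 with a negative difference. Their median was -1.95 against -0.02 over all tested genes. Of these 26, 8 had all Sox6+ libraries below all Sox6- libraries (9.19% of all tested genes did) and 0 had the opposite (7.86%). Some, such as Grpr (means 0 and 42.9) and Npbwr1 (0.637 and 23.7), reached the mean of 10 only through the Sox6- libraries, which limits these counts. Values of 0 also affect the median, as in Kiss1r, at -2.00 in limma but -0.51 in DESeq2. Mc3r, a melanocortin receptor gene, had 0, 0 and 14.8 normalized counts in Sox6+ neurons and 138.1, 249.8 and 123.3 in Sox6- neurons (adjusted p = 0.0782, limma). Rxfp3, the relaxin-3 receptor gene, had 15.8, 0 and 0 in Sox6+ neurons and 88.3, 96.7 and 84.4 in Sox6- neurons (adjusted p = 0.144, limma). Grpr, the gastrin-releasing peptide receptor gene, was at 0 in all Sox6+ libraries and had 13.4, 50.4 and 64.9 normalized counts in Sox6- libraries, at least 42.7-fold lower in Sox6+ neurons by the same floor (28.1-fold without Sox6+ library 103 and 27.1-fold without Sox6+ library 1211). In Sox6- library 825 these 3 genes lay within or above the range of the other Sox6- libraries. The glutamatergic marker Slc17a6, at 2236.7 in that library, was likewise above all Sox6+ libraries. The part of cell type markers in the differences of these receptors was not tested. Of the list, Mc3r, Grpr, Hcrtr2, Npbwr1 and Rxfp3 were lower in Sox6+ neurons at an adjusted p under 0.05 in the authors' deposited table (1.58% of all its genes were), and 0 were higher (1.25%).

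**Figure D5:**
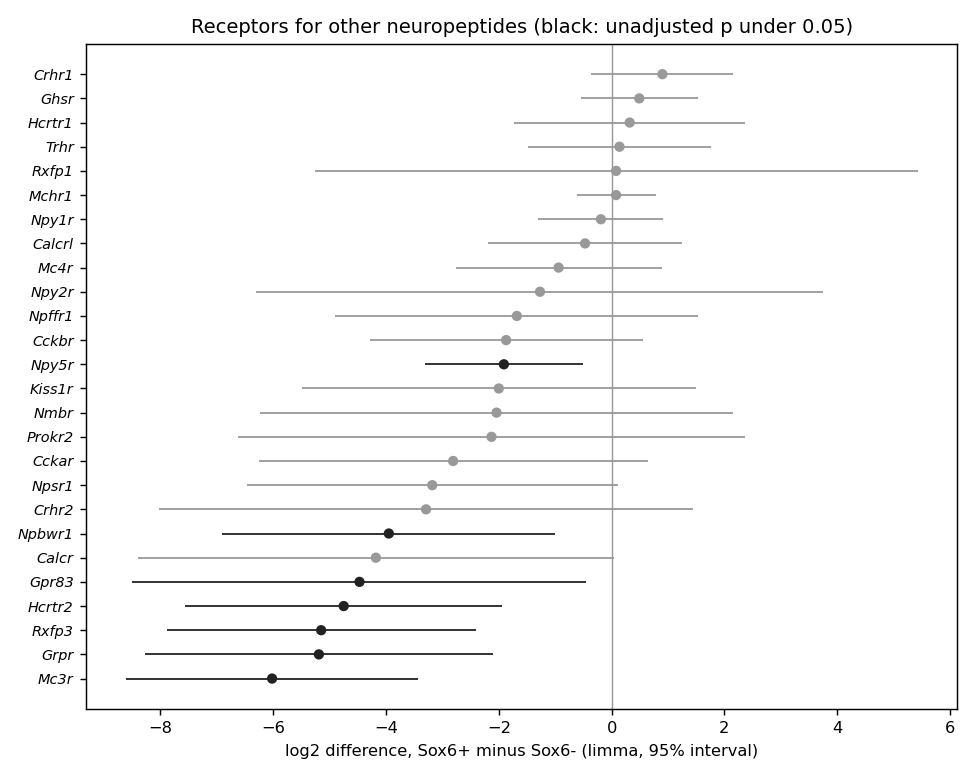
Log2 difference of Sox6+ minus Sox6- neurons (horizontal axis) with its 95% interval from limma for the 26 tested receptors of other neuropeptides, in black where the unadjusted p is under 0.05. The 7 black genes, from Npy5r to Mc3r, are all negative, and none of the 26 passed after adjustment over all genes.

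The remaining lists hold genes that act downstream of the receptors or cleave their peptides. The 4 Gq/11 alpha subunit genes had a median log2 difference of 0.11, and the 5 Gi/o genes one of -0.13. Among the Gi/o genes, Gnai2 had 943.1, 1069.2 and 1030.4 normalized counts in Sox6+ neurons and 1100.4, 1440.1 and 1494.1 in Sox6- neurons (adjusted p = 0.426, limma). Of 7 receptor kinase and arrestin genes, Adrbk2, the gene of G protein-coupled receptor kinase 3, had 461.7, 661.6 and 410.3 in Sox6+ neurons and 145.8, 303.1 and 135.4 in Sox6- neurons, with no overlap. It did not pass in limma (adjusted p = 0.147) or edgeR (0.271) but passed in DESeq2 (0.0252). The 14 RGS genes, which shorten G protein signals, had a median of -0.02, with Rgs6 at 1.23, Rgs14 at -3.91 and Rgs16 at -3.08 on the log2 scale. They did not pass (adjusted p = 0.388, 0.362 and 0.391, limma). Rgs14 had 0, 37.6 and 0 normalized counts in Sox6+ neurons and 47.0, 60.4 and 43.6 in Sox6- neurons, and DESeq2 gave it -2.01. Rgs16 had 10.9, 0 and 2.77 in Sox6+ neurons and 26.9, 35.2 and 26.0 in Sox6- neurons. Of 11 tested peptidase genes 8 were positive, and 4 had every Sox6+ library above every Sox6- library, as did 7.86% of all tested genes. Nln, the gene of neurolysin, which cleaves neurotensin, had 292.0, 364.4 and 203.3 in Sox6+ neurons and 173.6, 134.9 and 86.3 in Sox6- neurons (adjusted p = 0.273, limma).

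The 8 tested ligand precursor genes all had a negative limma difference, with a median of -4.67 against -0.02 over all tested genes. Its size varied: Pomc was at -0.11, and Tac2 at -3.32 in limma but -0.31 in DESeq2. Pdyn, with means of 1.97 in Sox6+ and 18.1 in Sox6- neurons, reached the mean of 10 only through the Sox6- libraries. Of the 8 genes, 3 (Nts, Pnoc and Gal) were lower in Sox6+ neurons with no overlap, as were 9.19% of all tested genes. Of the other subtypes of the same receptor families, Sort1, a sorting receptor that also binds neurotensin, was the 1 gene tested, at 277.8 ± 117.9 in Sox6+ and 281.2 ± 52.0 in Sox6- neurons (SD, n = 3 each), and Avpr1b and Avpr2 had no read in any library.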

How the data were processed

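Per the labels' protocols, cells were dissociated with papain and sorted, and mRNA libraries were made with a stranded TruSeq kit. The submitters' processing notes list GRCm38 (mm10) as builds and DESeq2, HTSeq, STAR, cutadapt and FastQC as tools. Versions were not given in the sources used here. A single table was deposited by the authors, holding a normalized signal per library (read counts divided by a size factor), their mean, a log2 fold change (Sox6- over Sox6+), its standard error, the test's score, the p-value and the p-value after adjustment. In each library 100.0% of values above 0 were whole multiples of the value of 1 read, within 0.01, so reads were recovered by division.

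Groups came from the sample titles. Genes with a mean of at least 10 were tested with limma (trend and robust moderation, log2(value + 1), no block, threshold 0.05). Alternatives were other pseudocounts (0.5 and 8), no filter or a mean of 50, TMM, edgeR with robust dispersion, DESeq2, the library number as a block, and leaving out each library. The fit was tested on simulated data. Differences of low genes depend on the scale and can be smaller or larger than those from a count model. Oxtr had -4.51 in limma and -6.48 in DESeq2, and Rgs14 had -3.91 and -2.01. All 10 receptors are named. Of each pathway list the genes past the threshold, or else the 3 of smallest p, are named, and other genes were named after their values were seen. The receptors and lists were chosen with earlier results of these data known. Exon lengths and positions are from GENCODE M21, promoter windows from RefSeq (GRCm38.p6). Libraries correlated at 0.796 to 0.92 within groups and at 0.754 to 0.92 between groups (Pearson, log2 values). Chi-square per gene was 33.3 or more for each pair, so none was a copy. The fits used limma 3.58.1, DESeq2 1.42.0 and edgeR 4.0.16 in R 4.3.3. Other steps used scipy 1.17.1, pandas 2.3.3, numpy 2.4.6 and matplotlib 3.10.9 in Python 3.11.15.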

Additional observations from a re-analysis of the deposited data

How the results depend on the processing

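Limma called 40 genes in all. The count was 267 with the library number as a replicate block, 120 with edgeR and the block, 69 with a pseudocount of 8, 21 without a filter, 6 with edgeR and 387 with DESeq2, and it ran from 1 to 161 when 1 library was left out. Of the receptors, 1 passed in limma, against 2 with the block in limma or edgeR (Avpr1a and Tacr3), 3 with DESeq2, 0 without a filter, 0 with edgeR, and 0 to 1 when 1 library was left out. Of the pathway genes, where 0 passed, 3 did with the block (Adrbk2, Mc3r and Nts), 1 with edgeR and the block, 2 with a pseudocount of 8, 1 with a filter at a mean of 50, 5 with DESeq2, and 0 to 4 when 1 library was left out. Shared numbers were not taken as pairs: deviations of same-numbered libraries from their group means correlated at 0.268 for 103, 0.172 for 825 and 0.079 for 1211, although each library correlated best with its own number. The adjusted p with the block was 0.0135 for Avpr1a and 0.0163 for Tacr3.

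Avpr1a kept its direction in all 15 alternatives, from -2.98 to -2.39, and Tacr3 in all 15, from 1.01 to 1.38. Of the tested receptors and the pathway genes chosen by the naming rule, Tacr1 and Sort1 turned sign, in both cases when 1 library was left out, with ranges of -1.55 to 0.13 and -0.40 to 0.12. For other named genes single values under the alternatives are not given here. With the longest transcript in place of the exon union, 6 of the 10 receptors kept their rank of level in Sox6+ neurons and 5 of the 10 in Sox6- neurons. The check in Sox6- neurons, and the bounds of Galr1 and Grpr without each library, were chosen after seeing the data. The values of Ntsr2, Oprm1 and Galr1 rest on few reads (8 and 42, 16 and 70, and 0 and 65 in Sox6+ and Sox6- libraries), which limits their precision.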
